A study of Mus musculus with 21 samples.

Results

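Alox15, Prg4, Gata6, Selp, Icam2, F5 and Garnl3 are 7 genes known for their expression in the large macrophages of the mouse peritoneal cavity, and they were followed here across 21 RNA-seq libraries made from sorted myeloid cells of mouse adipose tissue. The 7 genes were taken by name out of 54532 in the count table, and all of them passed the filter on low counts. The members were chosen by measured values in part, because Alox15 and Prg4 were named for parting MHCII-low from CD11c- macrophages in lean mice. For that reason the lean comparison is described below without a test, and the tests are of other libraries or other contrasts. Alox15 and Prg4 also have no test between diets in those 2 populations, since such a test would use the same lean libraries again.

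All mice were male C57BL/6 and had eaten a high fat diet or a normal one over 16 weeks, and they are called obese and lean as in the labels. The 7 groups of 3 libraries were MHCII-low macrophages of obese mice, MHCII-low macrophages of lean mice, MHC class II positive macrophages with CD11c (CD11c+) of obese mice, monocyte-derived cells of obese mice, monocyte-derived cells of lean mice, and MHC class II positive macrophages without CD11c (CD11c-) of obese and of lean mice. Cells were released with collagenase and separated by flow cytometry, and the small RNA yields were amplified with a NuGen Ovation kit. The depot of adipose tissue and whether the replicates came from separate mice or pools are not stated in the labels, and p-values therefore measure the spread between these samples only.

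Large peritoneal macrophages are long-lived resident cells of the body cavity that carry little MHC class II. The transcription factor Gata6, which is induced by retinoic acid made by the surrounding tissue, is needed for much of their gene programme. In mice they are marked on the surface by Icam2 and Timd4, and they express the lipid-oxidising enzyme Alox15, the lubricating glycoprotein Prg4, the adhesion receptor Selp, coagulation factor V (F5) and Garnl3.

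Library totals ran from 11245851 to 35568948 counts, which are counts of reads and so cover sampling error only. The sort genes followed the labels, and H2-Aa, which encodes an MHC class II chain, stood at 394 ± 79.9 CPM in obese MHCII-low and 3153 ± 354 CPM in obese CD11c- macrophages (SD, n = 3 each). Macrophage markers were present in MHCII-low cells, where 8 such genes summed to 9701 ± 977 CPM in obese mice, against 7151 ± 937 CPM in lean ones. Lean libraries held more reads on 1731 odorant and pheromone receptor genes that myeloid cells are not known to use. These reads summed to 42.8 ± 10.2 CPM in obese and 186 ± 46.7 CPM in lean MHCII-low macrophages, 30.2 ± 2.62 CPM in obese and 110 ± 35.4 CPM in lean CD11c- macrophages, and 120 ± 48.2 CPM in obese and 720 ± 431 CPM in lean monocyte-derived cells. CPM are counts scaled to library size. Values of single genes are scaled by TMM, except the CPM of Epx, Prg2, Siglecf, Ccr3, Mcpt4, Cpa3, Tpsb2, Cma1, Gp1bb, Gp1ba, Itga2b and Pf4, and of Timd4 in monocyte-derived cells. These, and sums over lists, are taken per library total without that scaling.

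Alox15 encodes a lipoxygenase that oxygenates arachidonic and linoleic acid, and it lies on chromosome 11 at 70344152 to 70352031 on the minus strand of GRCm38. In obese mice it stood at 5.17, 9.69 and 8.13 CPM in the 3 MHCII-low libraries and at 0.315, 0.495 and 0.152 CPM in the 3 CD11c- libraries. In lean mice it stood at 37.1, 9.17 and 23.1 CPM in MHCII-low libraries and at 1.70, 1.27 and 0.641 CPM in CD11c- libraries. Every MHCII-low library was above every library of the other groups. No other gene of the 7 showed that pattern apart from Prg4. The obese contrast uses none of the libraries that chose the gene, and in it Alox15 was higher in MHCII-low macrophages by a log2 fold change of 4.53 (SE 0.53, adjusted p = 5.31e-05). The lean difference was 4.24 (SE 0.48), given as a description. The CD11c- values in obese mice rest on 4 to 15 reads per library, so the size of that ratio, 23.9 between group means, is less certain than its direction.

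Prg4 encodes proteoglycan 4, also called lubricin, a mucin-like glycoprotein of joint fluid, and lies on chromosome 1 at 150449412 to 150466165 on the minus strand. It stood at 16.6, 20.8 and 20.0 CPM in obese MHCII-low libraries and at 3.29, 9.86 and 4.91 CPM in obese CD11c- libraries. The lean values were 73.3, 29.4 and 55.3 CPM in MHCII-low libraries and 5.42, 5.56 and 2.70 CPM in CD11c- libraries. The MHCII-low libraries again stood apart from all others, and the obese ones spread little among themselves. In obese mice Prg4 was higher in MHCII-low macrophages by a log2 fold change of 1.66 (SE 0.38, adjusted p = 0.0191). The adjusted p was 0.0501 without obese MHCII-low replicate 2, 0.0856 without obese CD11c- replicate 1 and 0.1003 without obese CD11c- replicate 3. The lean difference was 3.52 (SE 0.41), and whether the lean and obese differences differ was not tested because the lean contrast chose the gene.

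**Figure D1:**
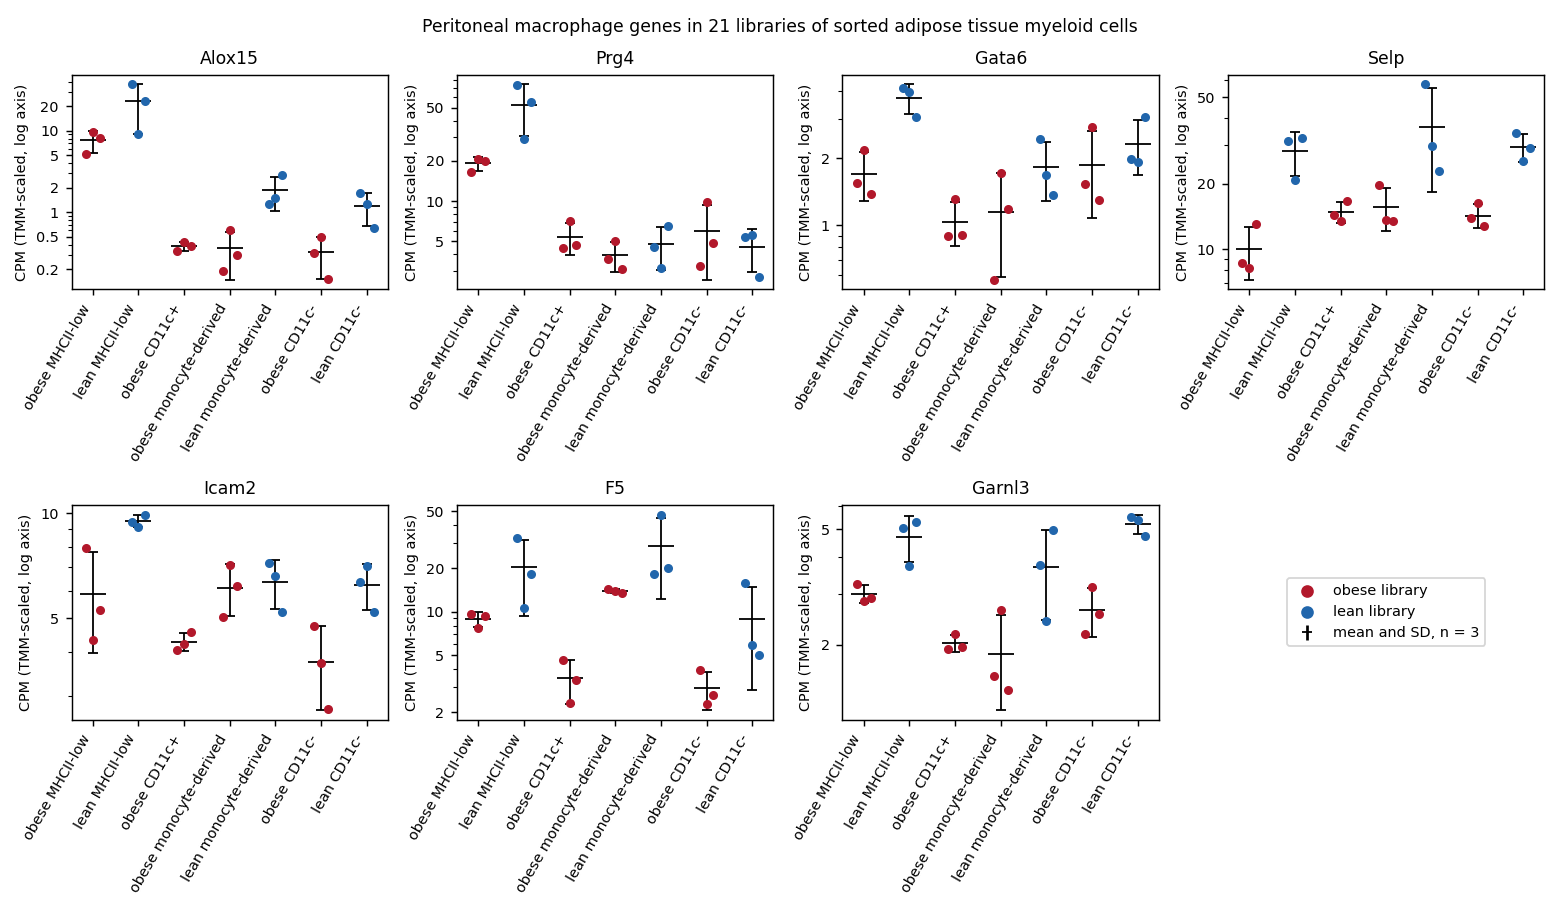
CPM of the 7 genes (TMM-scaled, log axis) in each of 21 libraries, by group, with the mean and SD of 3 libraries; red points are obese and blue points lean libraries. Alox15 and Prg4 are highest in the 6 MHCII-low libraries, while Selp and F5 have their highest mean in lean monocyte-derived cells and Garnl3 in lean CD11c- macrophages.

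Gata6, on chromosome 18 at 11052064 to 11085635, was a low transcript throughout, with 15 to 90 reads and 0.572 to 4.11 CPM per library. Its values were 1.55, 2.18 and 1.39 CPM in obese MHCII-low libraries and 1.54, 2.77 and 1.29 CPM in obese CD11c- libraries. These ranges overlapped, and the log2 difference of -0.14 (SE 0.36, adjusted p = 0.950) did not pass the test. In lean mice Gata6 stood at 4.11, 3.98 and 3.06 CPM in MHCII-low libraries and 1.98, 1.93 and 3.07 CPM in CD11c- libraries, a difference of 0.68 (SE 0.35) with ranges that just met. Per kb of exon its level in lean MHCII-low macrophages was 0.571 CPM, against 9.42 CPM per kb for Alox15 and 12.3 CPM per kb for Prg4. Gata6 thus had its highest mean in the population named for these genes, but at the level of a weakly detected gene.

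Icam2, a ligand of leukocyte integrins on chromosome 11 at 106377656 to 106388075, stood at 7.95, 4.33 and 5.29 CPM in obese MHCII-low libraries and 4.76, 3.73 and 2.74 CPM in obese CD11c- libraries. The ranges overlapped, and the log2 difference of 0.64 (SE 0.23, adjusted p = 0.161) did not pass, while pairing by replicate number gave the same 0.64 with an adjusted p of 0.0272. The lean values were 9.46, 9.17 and 9.93 CPM in MHCII-low libraries and 6.37, 7.07 and 5.22 CPM in CD11c- libraries. These did not overlap, with a difference of 0.61 (SE 0.22). Icam2 in obese monocyte-derived cells was above obese CD11c- macrophages by 0.70 (SE 0.23, adjusted p = 0.0298), a call that was lost when any 1 of 4 libraries was left out, namely obese monocyte-derived replicates 2 and 3 and obese CD11c- replicates 2 and 3 (adjusted p = 0.0797 to 0.174).

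Selp encodes P-selectin, the adhesion receptor that platelets and endothelial cells release from storage granules, and F5 encodes coagulation factor V, the cofactor of the enzyme that makes thrombin. The genes are neighbours on the plus strand of chromosome 1, Selp at 164115264 to 164150026 and F5 at 164151838 to 164220277, with 1811 bases between them. Because both were called lower in obese MHCII-low and CD11c- macrophages, as given below, their promoter windows from RefSeq on GRCm38.p6 are shown. The windows run from 250 bases before to 50 bases after each RefSeq start, which for F5 differs by a few bases from the start given here. Both are on the plus strand, Selp at chr1:164115014-164115313 and F5 at chr1:164151585-164151884. RefSeq windows were searched for 3 of the 7 genes, Selp, F5 and Garnl3. No window was available for Alox15, Prg4 or Icam2, and Gata6 was left out of the search.
Selp: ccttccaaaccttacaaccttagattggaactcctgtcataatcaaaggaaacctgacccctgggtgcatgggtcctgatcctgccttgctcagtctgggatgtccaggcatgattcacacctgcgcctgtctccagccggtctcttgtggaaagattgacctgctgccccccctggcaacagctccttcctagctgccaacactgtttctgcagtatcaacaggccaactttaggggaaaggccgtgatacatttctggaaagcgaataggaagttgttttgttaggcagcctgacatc
F5: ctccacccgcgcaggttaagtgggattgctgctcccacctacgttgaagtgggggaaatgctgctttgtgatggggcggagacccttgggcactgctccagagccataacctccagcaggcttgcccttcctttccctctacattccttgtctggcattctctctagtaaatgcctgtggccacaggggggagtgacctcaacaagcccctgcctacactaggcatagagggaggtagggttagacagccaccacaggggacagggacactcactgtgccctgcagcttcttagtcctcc
The sequences were searched on both strands for the word AGATAA of the GATA motif, also with T as its first or G as its last letter, and neither window held a match, nor did the 2 windows of Garnl3. Of the 32851 windows of 300 bases that were searched, 29.8% held at least 1 match. The search was chosen after the values were seen, and it says only that these letters are not in these windows.

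In obese mice Selp stood at 8.62, 8.20 and 13.1 CPM in MHCII-low libraries and 13.9, 16.2 and 12.7 CPM in CD11c- libraries, a log2 difference of -0.52 (SE 0.27, adjusted p = 0.445). In lean mice it was 31.6, 20.7 and 32.3 CPM in MHCII-low libraries and 34.0, 25.3 and 29.1 CPM in CD11c- libraries, a difference of -0.06 (SE 0.27). That sign turned under 3 alternatives, to 0.10 at the most when 1 library was left out and to 0.14 with a block on the number in the sample descriptions. The ranges of the 2 macrophage populations overlapped on both diets, and the highest mean was in lean monocyte-derived cells, at 57.2, 29.7 and 22.8 CPM.

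F5 stood at 9.62, 7.76 and 9.36 CPM in obese MHCII-low libraries and at 3.96, 2.28 and 2.67 CPM in obese CD11c- libraries. The ranges did not overlap, and the log2 difference of 1.59 (SE 0.47) did not pass with an adjusted p of 0.0893. Pairing the obese libraries by replicate number gave 1.61 and an adjusted p of 0.000176, and DESeq2 gave an adjusted p of 0.00675. In lean mice F5 was 32.6, 10.6 and 18.2 CPM in MHCII-low libraries against 15.8, 5.87 and 4.99 CPM in CD11c- libraries, a difference of 1.20 (SE 0.45) with overlapping ranges. Monocyte-derived cells had 14.3, 13.9 and 13.4 CPM in obese and 18.4, 47.3 and 20.1 CPM in lean libraries. The obese values lay above those of obese MHCII-low and CD11c- macrophages, while the lean values overlapped those of lean MHCII-low macrophages. In obese mice F5 was higher in monocyte-derived cells than in CD11c- macrophages by a log2 fold change of 2.23 (SE 0.48, adjusted p = 0.00231).

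Garnl3, named for a domain like that of proteins that switch off Rap GTPases, lies on chromosome 2 at 32986224 to 33131654. It stood at 3.24, 2.84 and 2.90 CPM in obese MHCII-low libraries and 2.17, 3.17 and 2.55 CPM in obese CD11c- libraries, a log2 difference of 0.19 (SE 0.26, adjusted p = 0.870). In lean mice it stood at 5.07, 3.74 and 5.31 CPM in MHCII-low libraries and 5.50, 5.41 and 4.76 CPM in CD11c- libraries. The ranges overlapped on both diets, and the highest mean, 5.22 CPM, was in lean CD11c- macrophages.

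Over the 7 genes, 2 were called higher and 0 lower in obese MHCII-low against obese CD11c- macrophages, where 3.05% of 22935 tested genes were called and 1.85% were called higher. In 3 of the 7, Alox15, Prg4 and F5, every MHCII-low library was above every CD11c- library, as it was for 13.2% of all tested genes. The median log2 difference of the 7 was 0.64, beside 0.00 over all tested genes. With libraries paired by replicate number 4 of the 7 were called, while 18.0% of all genes tested in that fit were called. In the lean contrast the 7 had a median of 0.68, against 0.01 over all tested genes, as a description, since that contrast entered the choice. Alox15, Prg4 and Icam2 had lean ranges that did not overlap, as did 8.79% of all tested genes in the same direction.

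**Figure D2:**
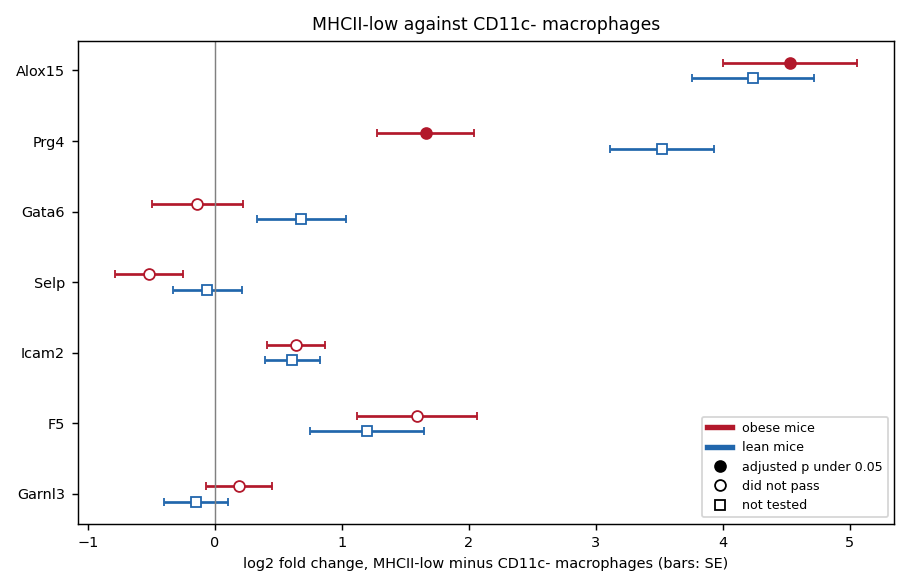
Log2 fold change of MHCII-low over CD11c- macrophages with its SE for each of the 7 genes, in obese mice (red circles, filled where the adjusted p is under 0.05) and in lean mice (blue squares, not tested). Alox15 lies at 4.53 and 4.24, Prg4 at 1.66 and 3.52, Selp at -0.52 and -0.06, and Garnl3 lies within 1 SE of 0 in obese mice, at 0.19.

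Within lean MHCII-low macrophages the 3 libraries were not alike. Replicate 2 had the lowest value of its group for 6 of the 7 genes, Gata6 being the exception. The highest library was 4.04 times the lowest for Alox15, 3.07 times for F5 and 2.49 times for Prg4. The same ratio was 1.56 for Selp, 1.42 for Garnl3, 1.34 for Gata6 and 1.08 for Icam2. Alox15, Prg4 and F5, which were the members most raised in MHCII-low macrophages, were thus also the ones that varied most among them.

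Other genes of large peritoneal macrophages were read from a list of 18. The list was chosen with earlier results of these data known. In obese MHCII-low against obese CD11c- macrophages 5 of 18 were called higher and 0 lower, with a median log2 difference of 0.59. Over all tested genes 1.85% were called higher in that contrast, with a median of 0.00. The 5 are named here after their values were seen. Fcna, a lectin of the complement pathway, was at 257 ± 104 CPM in MHCII-low and 24.4 ± 2.30 CPM in CD11c- macrophages (SD, n = 3 each), a difference of 3.39 (SE 0.49, adjusted p = 0.000658). Timd4, the phosphatidylserine receptor of resident macrophages, was at 16.6 ± 5.91 CPM in MHCII-low and 1.73 ± 0.359 CPM in CD11c- macrophages, a difference of 3.25 (SE 0.40). Vsig4, a complement receptor, differed by 2.77 (SE 0.46), the acute phase gene Saa3 by 3.30 (SE 0.49), and Padi4, an enzyme that turns arginine into citrulline in proteins, by 2.74 (SE 0.34). The most abundant members of the list in lean MHCII-low macrophages, Fn1 and Thbs1, which encode fibronectin and thrombospondin 1, differed by -0.57 (SE 0.46, adjusted p = 0.713) and -0.90 (SE 0.39, adjusted p = 0.316). Calls on this list were not particular to MHCII-low macrophages. In obese monocyte-derived cells against obese CD11c- macrophages 7 of 18 were called higher and 4 lower, with a median of -0.13. There 23.8% of all tested genes were called in either direction. Timd4 was at 13.35 CPM in obese and 54.2 CPM in lean monocyte-derived cells.

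**Figure D3:**
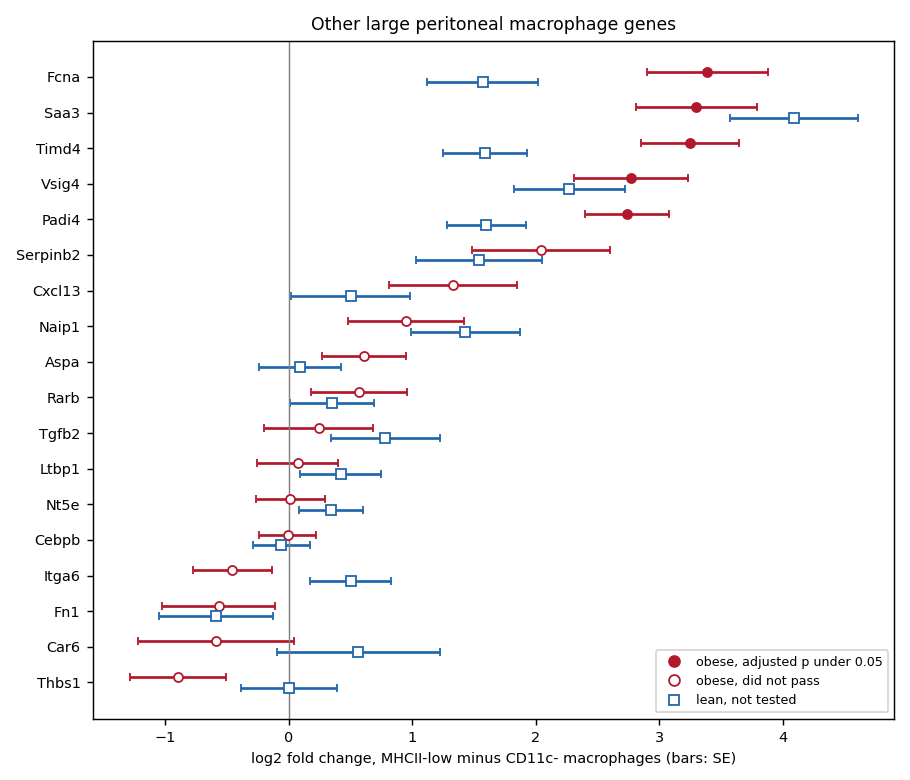
Log2 fold change of MHCII-low over CD11c- macrophages with its SE for 18 other genes of large peritoneal macrophages, in obese mice (red circles, filled where called) and lean mice (blue squares, not tested). Fcna, Saa3, Timd4, Vsig4 and Padi4 are called in obese mice, at 2.74 to 3.39, and the remaining 13 are not.

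The lists below were also chosen with earlier results of these data known, and 1.85% of all tested genes were called higher in the same obese contrast. Genes around Gata6 and retinoic acid gave 3 higher and 0 lower of 13 measured in it, with a median of 0.13. They were Klf4 at 1.00 (SE 0.20, adjusted p = 0.00515) and Klf2 at 0.80 (SE 0.16, adjusted p = 0.00495), both zinc finger transcription factors, and the retinoid X receptor Rxra at 0.58 (SE 0.14, adjusted p = 0.0251), which is named after its value was seen. Of 11 measured arachidonate oxygenase genes 2 were higher and 0 lower, the leukotriene enzymes Alox5 at 1.27 (SE 0.33, adjusted p = 0.0415) and, chosen after its value was seen, Ltc4s at 2.55 (SE 0.30, adjusted p = 5.15e-05). Of 12 coagulation genes 3 were higher and 0 lower, and Thbd, the thrombin receptor that turns on protein C, differed by 1.02 (SE 0.19, adjusted p = 0.00282). F13a1, the clot-linking transglutaminase subunit, differed by 1.83 (SE 0.45, adjusted p = 0.0319), and Pros1, the cofactor of protein C, by 1.02 (SE 0.22, adjusted p = 0.0132). Alternative activation genes gave 4 higher and 0 lower of 12, with the mannose receptor Mrc1 at 0.55 (SE 0.15, adjusted p = 0.0427). Of 7 selectin, selectin ligand and ICAM family genes 0 were called by edgeR and 1 by DESeq2, with 3 at an unadjusted p under 0.05 and a median of -0.17.

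Markers of other cells were read beside these results, since fewer cells of a type and less RNA per cell cannot be told apart in sorted bulk samples. Summed mesothelial markers were 19.0 ± 8.34 CPM in obese MHCII-low and 22.6 ± 13.4 CPM in obese CD11c- macrophages. In that contrast 0 of 12 were called by edgeR, nor had any an unadjusted p under 0.05 in it. DESeq2 also called 0, but gave no adjusted p for 3 of them. In lean mice these sums were 62.3 ± 17.6 CPM in MHCII-low and 44.9 ± 12.9 CPM in CD11c- macrophages. Summed endothelial markers, whose cells store P-selectin, were 96.0 ± 31.1 CPM in obese MHCII-low and 138 ± 42.6 CPM in obese CD11c- macrophages. The eosinophil granule genes Epx and Prg2, read because eosinophils also express Alox15, were at 0.0281 and 0 CPM in obese MHCII-low macrophages, against 0.0107 and 0.0238 CPM in obese CD11c- macrophages. The whole eosinophil and mast cell list summed to 46.9 CPM (9.81 to 70.6) in obese MHCII-low and 42.4 CPM (8.63 to 63.7) in obese CD11c- macrophages, with replicate 1 the lowest in each. Of 12 platelet markers the receptor subunit Gp1bb was at 0 in both obese groups and in 16 of the 21 libraries, while its partner subunit Gp1ba was at 3.53 CPM in obese MHCII-low and 2.84 CPM in obese CD11c- macrophages and the integrin gene Itga2b at 2.53 CPM in obese MHCII-low and 1.58 CPM in obese CD11c- ones. The list summed to 372 ± 53.1 CPM in obese MHCII-low and 342 ± 30.4 CPM in obese CD11c- macrophages, of which the chemokine Pf4, also made by macrophages, gave 360 CPM in obese MHCII-low and 330.1 CPM in obese CD11c- ones.

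**Figure D4:**
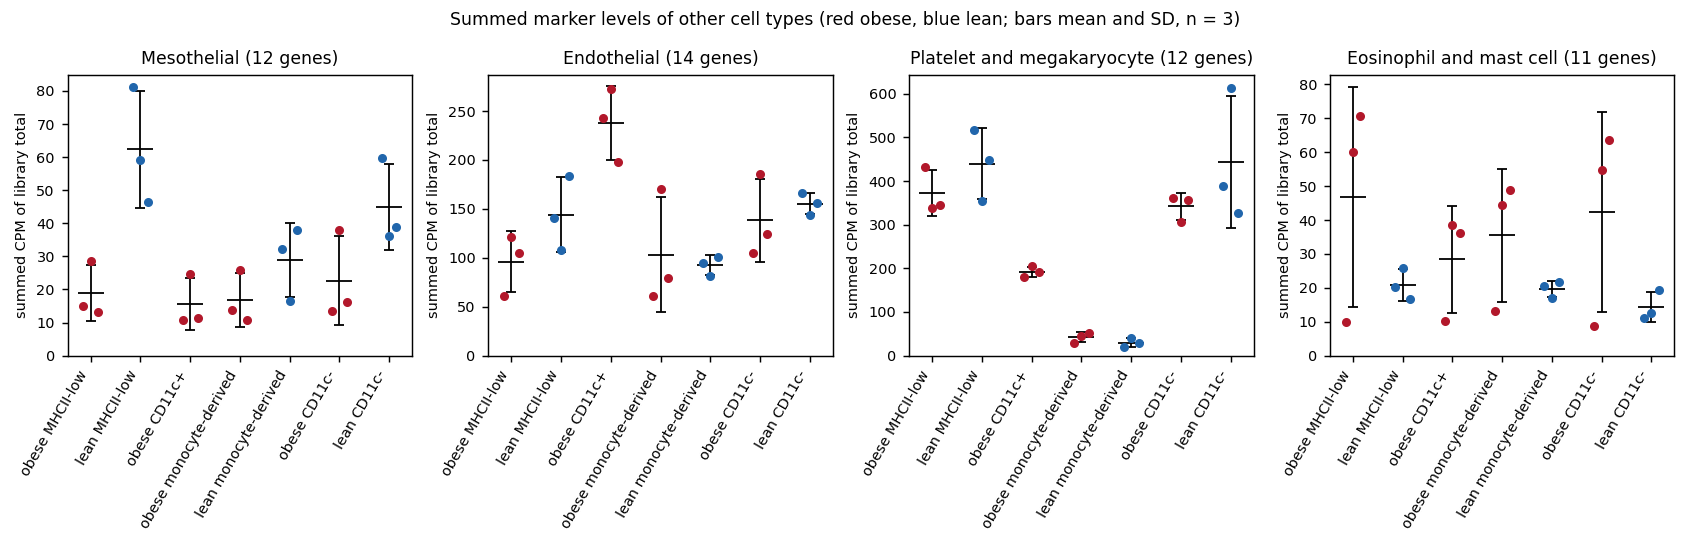
Summed CPM of the library total for marker lists of 4 other cell types in each library by group, with the mean and SD of 3 libraries; red points are obese and blue points lean libraries. Mesothelial sums are highest in lean MHCII-low macrophages, at 62.3 CPM, and lie at 19.0 CPM in obese ones.

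Between diets, Selp, Gata6, Icam2 and F5 were lower in obese MHCII-low than in lean MHCII-low macrophages, and Garnl3 did not pass, so 4 of 5 tested members were called lower. Calls were common in that comparison, with 30.7% of all tested genes called and 13.8% called lower. Selp fell by 1.50 on the log2 scale (SE 0.27, adjusted p = 0.000601), Gata6 by 1.12 (SE 0.35, adjusted p = 0.0215), Icam2 by 0.70 (SE 0.22, adjusted p = 0.0230) and F5 by 1.20 (SE 0.45, adjusted p = 0.04996). Garnl3 differed by -0.65 (SE 0.26, adjusted p = 0.0592). The libraries of all 5 lay below every lean library, as did those of 23.4% of all tested genes. Selp alone kept its call whichever library was left out: F5 lost it without any 1 of 5 of the 6 libraries, and Gata6 and Icam2 without any 1 of 4 of them, with adjusted p up to 0.283. In these fits 12.7% to 24.0% of all tested genes were called. Alox15 and Prg4, for which no test was made, differed by -1.59 (SE 0.41) and -1.46 (SE 0.37). For Alox15 the ranges overlapped, because lean replicate 2 was below obese replicate 2.

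Other measures moved with diet in the same libraries. Of the 4 sort genes 2 were called higher and 0 lower in obese MHCII-low macrophages, where 30.7% of all tested genes were called. They were H2-Ab1 (0.57, SE 0.21, adjusted p = 0.0485) and Itgax, which encodes CD11c and is named after its value was seen. Itgax was at 44.5 ± 20.1 CPM in obese and 4.58 ± 0.849 CPM in lean MHCII-low macrophages (3.28, SE 0.30, adjusted p = 8.73e-07). Mesothelial markers had 8 of 12 called lower in obese MHCII-low macrophages, with a median of -1.87 beside -0.07 over all tested genes, and 11 of the 12 had reads in all 21 libraries, while Nkain4 was at 0 in 1 of them. Receptor reads were also lower in every obese library than in every lean one, at 32.8 to 53.2 CPM in obese and 152 to 239 CPM in lean MHCII-low macrophages. Endothelial markers, of which 1 of 14 had a log2 difference above 0, summed to 96.0 ± 31.1 CPM in obese and 144 ± 38.0 CPM in lean MHCII-low macrophages, with a median of -0.65. Among them E-selectin (Sele), named after its value was seen, was called lower (-1.43, SE 0.36, adjusted p = 0.00542). Platelet markers summed to 372 ± 53.1 CPM in obese and 439 ± 81.2 CPM in lean MHCII-low macrophages, with 1 of 9 tested called lower, the receptor subunit Gp5 (-2.02, SE 0.45, adjusted p = 0.00267). The part of any of these in the lower levels of the 7 genes was not tested. Of the 18 other peritoneal genes 1 was called higher and 7 lower, and Fcna, the third most abundant in lean MHCII-low macrophages, was at 257 ± 104 CPM in obese mice, against 604 ± 104 CPM in lean ones (-1.23, SE 0.45, adjusted p = 0.0456). Timd4, chosen after its value was seen, was at 16.6 ± 5.91 CPM in obese mice, against 89.7 ± 16.7 CPM in lean ones (-2.44, SE 0.35, adjusted p = 9.47e-05). Of 13 genes around Gata6 and retinoic acid 6 were lower and 0 higher. Over all tested genes 13.8% were called lower in this comparison.

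In CD11c- macrophages 4 of 5 tested members were lower in obese mice, where 32.4% of all tested genes were called and 15.6% were called lower. Selp fell by 1.04 (SE 0.27, adjusted p = 0.00632), Garnl3 by 0.99 (SE 0.26, adjusted p = 0.00656), F5 by 1.58 (SE 0.48, adjusted p = 0.0178) and Icam2 by 0.73 (SE 0.23, adjusted p = 0.0193) on the log2 scale. Gata6 differed by -0.31 (SE 0.36, adjusted p = 0.531). F5 lost its call without obese replicate 2, obese replicate 3 or lean replicate 1, and Icam2 without these or lean replicate 2, with adjusted p of 0.0575 to 0.180. With 1 library left out 17.2% to 23.3% of all tested genes were called. Prg4 differed by 0.40 (SE 0.39, not tested), which rested on obese replicate 2 and was -0.13 without it. That library also had the highest mesothelial sum of the obese CD11c- libraries, at 38.0 CPM against 13.6 and 16.2 CPM in the others. Alox15 differed by -1.88 (SE 0.58, not tested). These mesothelial sums were 22.6 ± 13.4 CPM in obese and 44.9 ± 12.9 CPM in lean CD11c- macrophages, with 2 of 12 markers called lower. Of the 4 sort genes 1 was called higher in obese CD11c- macrophages and 0 lower. It was Itgax, at 85.0 ± 22.2 CPM in obese and 16.7 ± 2.41 CPM in lean ones (2.34, SE 0.28, adjusted p = 1.06e-05).

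Monocyte-derived cells gave 3 of 7 members lower in obese mice, with 17.2% of all tested genes called and 9.76% called lower. The 17.2% became 38.4% without lean replicate 2, 7.27% without lean replicate 3, 8.56% without obese replicate 3 and 11.3% without obese replicate 1. Alox15 stood at 0.191, 0.600 and 0.295 CPM in obese and 1.27, 1.50 and 2.83 CPM in lean libraries, and fell by 2.34 on the log2 scale (SE 0.59, adjusted p = 0.0131). The eosinophil genes Epx, Prg2 and Siglecf also had lower means in obese cells. Epx was at 0.0780 CPM in obese and 1.39 CPM in lean cells, and Prg2 at 0.0722 CPM in obese and 0.574 CPM in lean cells. Siglecf was at 4.54 CPM in obese and 8.32 CPM in lean cells. Ccr3, named after its values were seen, was at 0.879 CPM in obese and 0.829 CPM in lean cells. Epx and Prg2 did not pass the filter on low counts and were not tested. Of the 8 tested genes of the eosinophil and mast cell list 5 had a log2 difference above 0, with a median of 0.73. The mast cell genes Mcpt4, Cpa3, Tpsb2 and Cma1, named after their values were seen, had higher means in obese cells. Of these Tpsb2 was at 9.32 CPM in obese and 1.29 CPM in lean cells. Il5ra, Ear6 and Ms4a2 of the same list had lower means in obese cells. The whole eosinophil and mast cell list summed to 35.5 ± 19.6 CPM in obese and 19.6 ± 2.48 CPM in lean cells, with 0 of 8 tested called by edgeR, 3 called by DESeq2 and 4 at an unadjusted p under 0.05 in edgeR. Their part in the Alox15 difference was not tested. Selp fell by 1.23 (SE 0.27, adjusted p = 0.00636) and Garnl3 by 0.98 (SE 0.28, adjusted p = 0.0209). These calls depend on the spread shared with the other groups: with the 6 monocyte-derived libraries alone 0 of 7 members and 0.634% of all genes were called by edgeR, at adjusted p of 0.0921 to 0.233 for these 3, while 4 had an unadjusted p under 0.05. DESeq2 on all libraries called 3. Without obese replicate 3 none of the 7 was called, and without obese replicate 1 or lean replicate 3 only Selp was. The diet effects of Gata6, Selp, Icam2, F5 and Garnl3 in MHCII-low and in CD11c- macrophages were set against those in monocyte-derived cells. None of these 10 interaction tests, chosen after the data were seen, passed the threshold, with adjusted p of 0.237 to 0.995. Of all 22935 tested genes only 993 were called for MHCII-low and 1459 for CD11c- macrophages. The tests therefore do not show that the diet effects were alike.

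**Figure D5:**
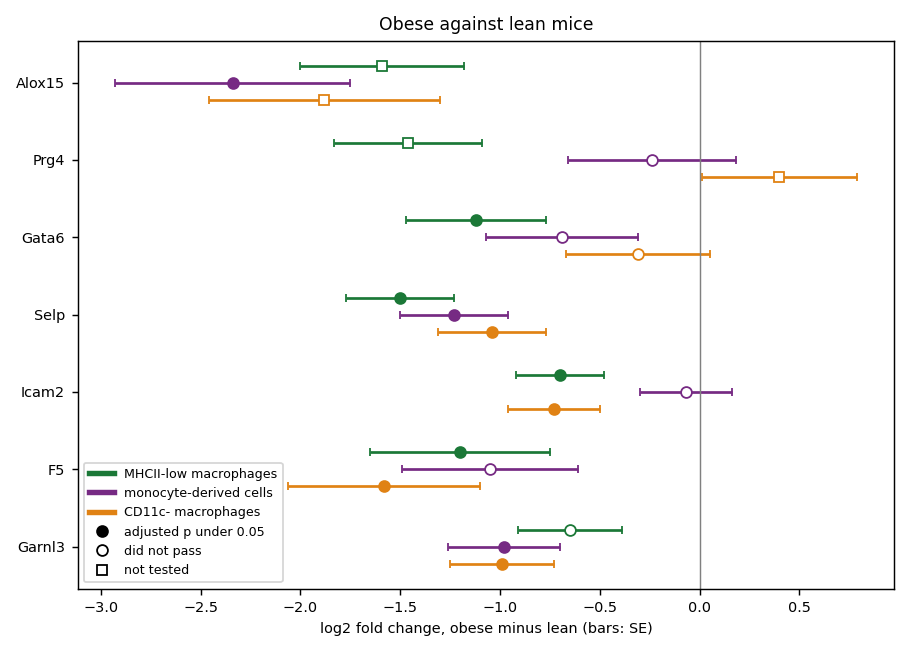
Log2 fold change of obese over lean mice with its SE for each of the 7 genes in MHCII-low macrophages, monocyte-derived cells and CD11c- macrophages; filled circles have an adjusted p under 0.05 and squares were not tested. Selp is called lower in all 3 populations, at -1.50, -1.23 and -1.04, and Prg4 lies between -1.46 and 0.40.

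Against CD11c+ macrophages, which were sampled from obese mice only, obese MHCII-low macrophages were again higher in Alox15 and Prg4, by log2 fold changes of 4.30 (SE 0.52, adjusted p = 1.54e-05) and 1.82 (SE 0.38, adjusted p = 0.00335). Here 14.3% of all tested genes were called and 8.42% were called higher. Alox15 in CD11c+ libraries was at 0.333, 0.436 and 0.384 CPM and Prg4 at 4.46, 7.07 and 4.71 CPM. F5 differed by 1.37 (SE 0.47, adjusted p = 0.0595) and Selp by -0.57 (SE 0.27, adjusted p = 0.170). With libraries paired by replicate number 6 of 7 were called, F5, Gata6 and Garnl3 also higher and Selp lower, while 37.0% of all genes were called in that fit. Of the 18 other peritoneal genes 9 were higher and 1 lower. This comparison and that with CD11c- macrophages share the obese MHCII-low libraries.

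Between CD11c+ and CD11c- macrophages of obese mice 0 of the 7 were called by edgeR or by DESeq2, and 1, Gata6, had an unadjusted p under 0.05 in edgeR, while 3.49% of all tested genes were called. Gata6 stood at 0.898, 1.31 and 0.908 CPM in CD11c+ and 1.54, 2.77 and 1.29 CPM in CD11c- libraries, a difference of -0.85 (SE 0.37, adjusted p = 0.211), which had an adjusted p of 0.00748 with the pairing by replicate number, where 44.1% of all genes were called. Replicate 2 was the highest in each. In obese monocyte-derived cells against CD11c- macrophages 2 of 7 were called, F5 and Icam2, beside 23.8% of all tested genes.

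The order of group means differed between the members. Alox15 ran lean MHCII-low, obese MHCII-low, lean monocyte-derived, lean CD11c-, then obese CD11c+, obese monocyte-derived and obese CD11c-. Only the steps below obese MHCII-low and below lean CD11c- had ranges that did not overlap. Prg4 ran lean MHCII-low, obese MHCII-low and then the 5 other groups, between 3.97 and 6.02 CPM, whose neighbours overlapped. Gata6 had no neighbouring groups with separate ranges, from 3.72 CPM in lean MHCII-low to 1.04 CPM in CD11c+ macrophages. Selp parted by diet, with means of 9.97 to 15.6 CPM in the 4 obese groups and 28.2 to 36.6 CPM in the 3 lean groups. Icam2 had lean MHCII-low above the rest, which overlapped from neighbour to neighbour between 3.74 and 6.36 CPM. F5 had separate ranges below obese monocyte-derived cells and below lean CD11c- macrophages, with obese CD11c+ and obese CD11c- macrophages lowest at 3.45 and 2.97 CPM. Garnl3 overlapped at every step, from 5.22 CPM in lean CD11c- to 1.86 CPM in obese monocyte-derived cells.

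Genes most like each member across the 21 libraries were ranked by Pearson correlation of log2 CPM among 14165 genes. These values describe libraries that share groups and replicates, and they have no test. Alox15 was followed by Padi4 at 0.902, Fgf9 at 0.898 and Gypc at 0.896, and Prg4 by Saa3 at 0.902, Adgrg1 at 0.893 and Alox15 at 0.890. Genes close to Gata6 were Egfros at 0.864 and Pard3b at 0.859, and Selp was closest to Pdlim3, Bcl11b and Ms4a4b, at 0.850 to 0.867. For Icam2 the closest were Nanos1, Cyp2ab1 and Mfsd4b5, at 0.865 to 0.891, for F5 Ifitm6, Serpinb10 and Mob3b, at 0.884 to 0.912, and for Garnl3 Dnhd1, Il17rd and Cbx7, at 0.929 to 0.950. Among the members themselves Alox15 and Prg4 were closest to each other. Both were chosen for parting lean MHCII-low from lean CD11c- libraries, which are among the 21, so their closeness was in part built in. Gata6 and Garnl3 reached 0.73, Icam2 and F5 0.71, and Prg4 and Selp stood at -0.01. Selp and F5, the neighbours on chromosome 1, reached 0.50.

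Reads of some members can come from overlapping genes on the other strand, which cannot be told apart because no source names the strand setting of the counting. For Prg4 the shared stretch with Tpr is 4.77% of its exon length, for Gata6 1.43%, for F5 3.53%, and for Selp 9.93% with one neighbour and 4.21% with another. Alox15 and Icam2 share no 50-base word with another gene, against 11.1% of such words for Selp and at most 3.97% for the other members.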

How the data were processed

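RNA of sorted adipose tissue myeloid cells was measured in 21 libraries, 3 in each of 7 groups set by the labels. The authors deposited whole-number counts of reads per gene for 54532 genes, per the labels and the file header; bcl2fastq, Trim Galore 0.4.5, STAR 2.6.0a, featureCounts of Subread 1.4.6-p5 and GRCm38 are named in the submitters' processing notes, without their order or settings. IDs were matched to GENCODE M21, 53229 with their version and 54409 without; for Gata6 the version differed.

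edgeR 4.0.16 in R 4.3.3 was run on the deposited counts: filterByExpr (22935 genes left), TMM, and a robust quasi-likelihood fit of the means of 7 groups, leaving 14 degrees of freedom, with the common dispersion at 0.0502. Tests were 2-sided, with Benjamini-Hochberg adjustment over all tested genes and calls at an adjusted p under 0.05. SE is that implied by the F statistic. Log2 CPM used a prior count of 2. The fit was tested on simulated data. Library totals ran from 11245851 to 35568948.

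Alternatives were DESeq2 size factors, no filter, DESeq2 1.42.0, the compared libraries alone, each replicate left out, and a replicate block. A fit without the lean monocyte-derived libraries was added after the data were seen. Named genes are the 7 members, the 3 most correlated genes of each (1 is not reported here), and up to 3 of each list by their mean in lean MHCII-low macrophages, with others marked. The members and lists were chosen with earlier results of these data known.

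Pairing was checked on deviations from group means over 8205 genes of at least 10 CPM, a limit set after the data were seen. Within each comparison of 2 obese groups all 3 pairs of equal title number exceeded 0.1 (0.260 to 0.771), so numbers were taken to pair those libraries. Over all obese groups 17 of 18 did, the lowest at 0.0829. The main fit did not use this pairing, and p-values of list genes are from that fit only. Genes that did not pass there may pass with pairing. In obese MHCII-low against CD11c- macrophages 18.0% of all genes were called with it, against 3.05% in the main fit. In the comparisons between diets 0 or 1 of 3 pairs of equal title number exceeded 0.1, and 1 of 3 in the lean one. Some lean libraries carry another number in the sample descriptions. Over all lean groups 5 of 7 pairs of equal description number exceeded 0.1 (0.0527 to 0.546), against 4 of 9 of equal title number (-0.31 to 0.546). Whether lean libraries are paired is thus not settled by the title numbers.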

Additional observations from a re-analysis of the deposited data

How the results depend on the processing

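Of the single-gene results under the alternatives, 592 counted as the same, 26 came to pass the threshold, 41 no longer did and 4 counted as sign changes. A tested gene that passed in neither fit counted as the same whatever its sign. A gene without a test counted as the same when it kept its sign and moved by less than the spread between libraries. The counted sign changes were Prg4 between diets in CD11c- macrophages, -0.13 without obese replicate 2 (-0.13 to 0.70 over the libraries left out), and Selp in the lean contrast, 0.10 without lean MHCII-low replicate 2, 0.04 without lean CD11c- replicate 1 (-0.18 to 0.10 over the libraries left out) and 0.14 with a block on the description number.

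Leaving out 1 library gave 1 to 2 members called in obese MHCII-low against CD11c- macrophages (2 with all libraries), 1 to 2 between diets in MHCII-low (4 of 5), 2 to 4 between diets in CD11c- macrophages (4 of 5), 0 to 3 between diets in monocyte-derived cells (3), and 1 to 2 in obese monocyte-derived against CD11c- cells (2). The share of all tested genes called moved too. It was 0.900% to 1.93% in obese MHCII-low against CD11c- macrophages (3.05% with all libraries). Between diets it was 12.7% to 24.0% in MHCII-low (30.7%), 17.2% to 23.3% in CD11c- (32.4%) and 7.27% to 38.4% in monocyte-derived cells (17.2%). In obese monocyte-derived against CD11c- cells it was 12.4% to 17.7% (23.8%). Fitting the compared libraries alone gave 0 between diets in monocyte-derived cells and 4 in obese MHCII-low against CD11c+ macrophages (2 in the full fit), with 27.8% of all genes called. That last comparison also had 4 with no filter on low counts (6.87% of all genes) and 4 without the lean monocyte-derived libraries (25.8%).

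With the replicate block, 4 members were called in obese MHCII-low against CD11c-, 6 in obese MHCII-low against CD11c+, and 1 in obese CD11c+ against CD11c- macrophages. Between diets, where equal numbers did not deviate together, the block gave 5 of 5 in MHCII-low (30.5% of all genes), 4 of 5 in CD11c- (37.2%) and 1 of 7 in monocyte-derived cells (1.07%). It changed no call in obese monocyte-derived against CD11c- cells. The count of all called genes in obese MHCII-low against CD11c- macrophages was 699, and 3359 with the block, 1225 by DESeq2, 1215 with no filter and 235 to 505 with 1 library left out. The causes of these changes were not tested. Depth limits Gata6, with 15 to 90 reads per library, and Alox15 outside MHCII-low macrophages, with as few as 4.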

Other observations

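Among marker lists not used above, B cell markers had 2 of 8 called lower in obese MHCII-low against obese CD11c- macrophages, with summed levels of 11.9 ± 2.84 CPM in MHCII-low and 18.8 ± 5.38 CPM in CD11c- macrophages (SD, n = 3 each). In that contrast 3.05% of all tested genes were called in either direction. Fibroblast markers summed to 1301 ± 631 CPM in obese MHCII-low and 1354 ± 685 CPM in obese CD11c- macrophages. Adipocyte markers summed to 8.83 ± 1.28 CPM in obese and 42.5 ± 4.63 CPM in lean MHCII-low macrophages, with 5 of 7 called lower in obese mice. Of all tested genes 13.8% were called lower there.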
